A study of Homo sapiens with 6 samples.

Results

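The collagen chains were examined in RCC10, an established line of human clear cell renal carcinoma that is deficient in VHL. Chains were taken as every row of the deposited count table whose symbol is COL, digits, A and digits with nothing after them, which gave 44 of 19009 genes. Symbols with a suffix, such as the antisense gene COL4A2-AS1, were left out (5 symbols). The 44 chains were placed in 8 structural groups by textbook class: 11 fibrillar, 8 of basement membranes, 5 beaded filament chains (type VI), 1 anchoring fibril chain (COL7A1), 3 of hexagonal networks, 10 FACIT chains, 4 transmembrane chains and 2 others.

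Poly(A)-selected RNA of 3 groups of 2 libraries was sequenced. All cells were RCC10 grown in DMEM with 10% FBS. Parental cells carried neither change. HIF double-knockout cells had both HIF-1alpha (gene HIF1A) and HIF-2alpha (gene EPAS1) targeted by guide RNAs delivered by lentivirus, followed by puromycin. VHL-restored cells had received a lentivirus with VHL, the part of a ubiquitin ligase that binds the HIF alpha subunits for their degradation. The labels name no non-targeting guide and no empty vector, so effects of the virus, of selection and of the cell population cannot be told apart from those of the targeted genes. The sources used here do not say whether the engineered lines were clones or pools, or whether the 2 libraries of a group were grown apart. The p-values therefore rest on the spread between 2 libraries a group, and that spread may be technical.

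Collagens are trimers of alpha chains wound into a triple helix, and each chain has its own gene. Fibrillar collagens build the striated fibrils of connective tissue, type IV chains build the sheet of basement membranes, and FACIT chains sit on the surface of fibrils. In the kidney, type IV trimers of COL4A1 with COL4A2 occur in most basement membranes, while the trimer of COL4A3, COL4A4 and COL4A5 is that of the mature glomerular basement membrane. Chains must be hydroxylated, folded, secreted, trimmed and cross-linked, and several enzymes of these steps are known HIF targets.

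Type IV genes lie head to head in pairs, so that one stretch of DNA runs between 2 starts. In RefSeq (GRCh38.p14) 126 bases separated the starts of COL4A1 and COL4A2, 418 those of COL4A3 and COL4A4, and 379 those of COL4A5 and COL4A6. For COL4A6 the RefSeq start nearest to COL4A5 was used, and another lies farther away. The stretch between COL4A1 and COL4A2 (chr13:110307158-110307283, plus strand, between the starts of the 2 genes) is shown because both chains changed little. The 250 bases before the starts of COL4A3 (chr2:227164374-227164623, plus strand), COL4A5 (chrX:108439588-108439837, plus strand), COL5A1 (chr9:134641553-134641802, plus strand) and COL6A3 (chr2:237414165-237414414, minus strand) are shown because the results on type IV, type V and type VI collagen turn on these chains. All run 5′ to 3′ on the strand named. Capitals mark ACGTG or GCGTG, the core letters of hypoxia response elements, and CCAAT, each on either strand.
COL4A1-COL4A2: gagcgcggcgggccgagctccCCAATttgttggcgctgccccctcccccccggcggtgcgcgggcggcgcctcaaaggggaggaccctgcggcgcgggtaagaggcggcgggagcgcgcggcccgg
COL4A3: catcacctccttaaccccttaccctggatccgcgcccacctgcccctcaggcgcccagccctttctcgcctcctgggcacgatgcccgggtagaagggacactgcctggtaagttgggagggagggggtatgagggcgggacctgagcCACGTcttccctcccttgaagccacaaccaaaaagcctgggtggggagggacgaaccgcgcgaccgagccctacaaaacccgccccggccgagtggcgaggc
COL4A5: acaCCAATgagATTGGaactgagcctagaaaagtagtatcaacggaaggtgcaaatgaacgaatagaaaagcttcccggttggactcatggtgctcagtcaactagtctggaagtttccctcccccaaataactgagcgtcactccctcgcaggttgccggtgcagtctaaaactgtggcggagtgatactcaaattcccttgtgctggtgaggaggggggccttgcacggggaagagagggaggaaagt
COL5A1: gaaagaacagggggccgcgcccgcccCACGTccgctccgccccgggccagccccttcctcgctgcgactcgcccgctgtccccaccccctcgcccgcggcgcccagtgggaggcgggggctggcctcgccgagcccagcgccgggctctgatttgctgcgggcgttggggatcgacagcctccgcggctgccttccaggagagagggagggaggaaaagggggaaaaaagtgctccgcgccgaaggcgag
COL6A3: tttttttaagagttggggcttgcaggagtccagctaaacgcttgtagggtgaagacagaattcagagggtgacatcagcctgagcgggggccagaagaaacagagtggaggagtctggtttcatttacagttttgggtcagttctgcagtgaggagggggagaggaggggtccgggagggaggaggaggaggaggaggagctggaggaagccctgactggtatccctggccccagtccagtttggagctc

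COL4A3 and COL5A1 each held 1 ACGTG, and none of the 5 stretches held GCGTG. COL4A5 held CCAAT at 2 places, the shared COL4A1 and COL4A2 stretch held it at 1, and the COL6A3 stretch held none of the 3 motifs. RefSeq windows of 250 bases before and 50 after a start were at hand for 32 of the 44 chains, 44 windows in all. ACGTG or GCGTG, on either strand, occurred in 19 of these 44 windows (43.2%) and in 48.4% of all 35116 windows. For ACGTG alone the shares were 15.9% and 21.4%, and for CCAAT 31.8% and 34.6%. A match is a run of letters and not a measured binding site.

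Total counts per library ranged from 22248126 to 29929116. EPAS1 was 351 CPM (counts scaled to library size) in parental cells, 46.2 in the double knockout and 366 after VHL restoration. HIF1A was 71.2, 30.6 and 295 CPM, and VHL was 39.1, 45.3 and 687 CPM, in the same order. Transcript of both targeted genes was still counted in double-knockout cells, and protein was not measured in this table. Of the 8 listed markers of renal epithelium and of the line, LRP2, a proximal tubule marker, had at most 1 count per library. The others were present, at levels that differed between groups. In the same order PAX8 was 301, 363 and 407 CPM and VIM 7021, 4717 and 3113 CPM. KRT8 was 734, 839 and 1454 CPM and KRT18 348, 842 and 955 CPM. CDH2 was 497, 621 and 418 CPM, CDH6 65.9, 11.2 and 28.4 CPM and PAX2 1.67, 15.4 and 1.11 CPM. Of 10 fibroblast markers 6 were in the table, and their summed level was 34.8 and 35.7 CPM in the parental libraries, 28.6 and 29.1 in the double-knockout and 33.0 and 34.1 in the VHL-restored ones. Of these 6, PDGFRA, DCN and FAP were under 1 CPM in every library. The other fibroblast markers moved in different directions, which their sum does not show. ACTA2 was 25.6, 24.0 and 15.9 CPM, PDGFRB 8.78, 2.32 and 14.3 CPM and THY1 0.746, 2.44 and 3.04 CPM (means in parental, double-knockout and VHL-restored libraries). Of the other cell types, PECAM1 and KDR (endothelial) and PTPRC and CD3E (leukocyte) were at 0 in every library. The summed endothelial markers were 1.98 to 3.79 CPM. Of these, ESAM was 1.56, 2.23 and 1.84 CPM and TEK 0.423, 0.219 and 1.75 CPM (means in the same order). The summed leukocyte markers were 61.0 to 65.6 CPM in the parental libraries. They were 23.3 to 25.6 CPM in the double-knockout and 24.4 to 27.1 CPM in the VHL-restored ones. Most of this was CD68, at 62.4, 21.5 and 24.6 CPM, and 6 of the 8 leukocyte markers were under 1 CPM throughout. ITGAM moved against that sum in double-knockout cells, with means of 0.625, 2.55 and 0.518 CPM. The part of other cell types in the results was not tested.

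Collagen messenger made up 0.410% and 0.420% of all counts in parental libraries, 0.363% and 0.352% in double-knockout libraries and 0.291% and 0.265% in VHL-restored libraries. Summed over the 44 chains this was 4091 ± 37.3, 3642 ± 101 and 2764 ± 196 CPM (mean ± SD, n = 2 here and below). The 3 groups did not overlap. Since counts rise with transcript length, these sums weight long chains more. Basement membrane chains held 58.6% of the collagen sum in parental cells, 55.7% in the double knockout and 76.9% after VHL restoration. Type VI chains held 29.9%, 32.6% and 10.1%. The sum of type VI chains was 1221 ± 15.3, 1187 ± 37.1 and 279 ± 15.0 CPM. The sum of type IV chains was 1502 ± 20.3, 1524 ± 24.3 and 1512 ± 111 CPM, and its groups overlapped. In bulk RNA fewer cells with a transcript and less transcript per cell cannot be told apart.

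**Figure D1:**
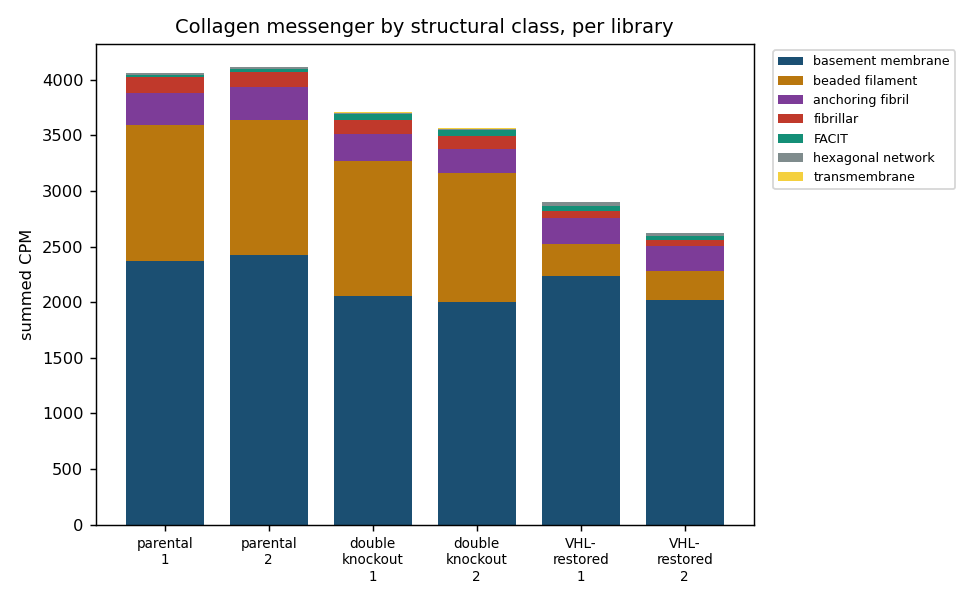
Summed CPM of the collagen chains in each of the 6 libraries, stacked by structural class (linear axis from 0). The type VI block was 1221 CPM in parental and 279 CPM in VHL-restored cells, whereas the basement membrane block was 2398 and 2126 CPM.

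Of the 44 chains 42 had at least 1 count and could be tested, while COL3A1 and COL21A1 had none. A further 13 had 10 counts or fewer over all 6 libraries. By the highest group mean, 15 chains reached 10 CPM, 7 lay between 1 and 10 CPM and 22 lay under 1 CPM. Levels of different genes can be compared only per length, here CPM per kilobase of the longest principal transcript in GENCODE 29. On this scale COL18A1 led in parental cells at 151, followed by COL6A2 at 121, COL4A2 at 120.0 and COL4A1 at 103 CPM per kilobase. In double-knockout cells COL4A2 led at 137, before COL6A2 at 105 and COL4A1 at 95.3. In VHL-restored cells COL4A2 was at 136, COL18A1 at 104 and COL4A1 at 91.0, and the next chain, COL6A1, was at 29.2. This order rests on the transcript chosen. With the merged exons of all coding transcripts as the length, which for COL4A2 is 12971 instead of 6494 bases, COL6A1 led in double-knockout cells at 87.8 and COL18A1 in VHL-restored cells at 89.9 CPM per kilobase.

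**Figure D2:**
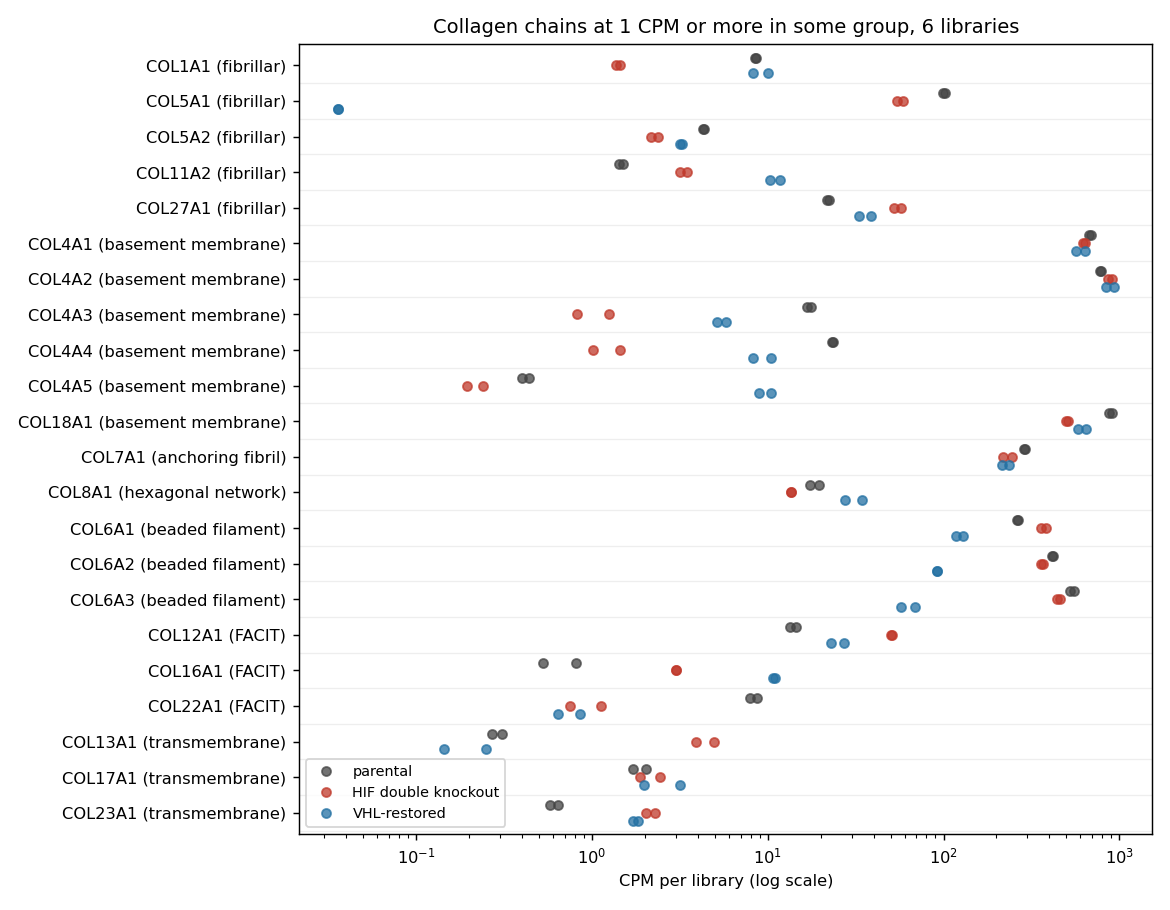
CPM of each chain with at least 1 CPM in some group, on a log axis, with 1 point per library coloured by group. Levels of different chains are not scaled for length, so only points of the same chain can be compared.

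Double-knockout cells were compared with parental cells to ask which chains differ after HIF1A and EPAS1 were targeted. With edgeR's quasi-likelihood test and Benjamini-Hochberg adjustment over all 18273 genes at 0.05, 8 chains were higher and 12 lower of the 42 tested. Over all genes 26.6% were higher and 27.5% lower, so 8 of 42 chains higher and 12 of 42 lower lie near that background. In VHL-restored against parental cells 9 were higher and 11 lower, with 26.5% of all genes higher and 27.7% lower. In double-knockout against VHL-restored cells 8 were higher and 10 lower, with 28.0% of all genes called in each direction, 5113 genes higher and 5112 lower. The median log2 fold change of the 42 chains was -0.30, -0.27 and -0.11 in these comparisons, against 0 over all genes in each. For the 15 chains that reached 10 CPM it was -0.20, -0.36 and 0.03. For the 20 tested chains under 1 CPM it was -1.16, 0.10 and -0.53, where fold changes from few counts depend on the prior count. Of the 15 chains that reached 10 CPM, 14 were called in double-knockout, 15 in VHL-restored cells against parental, and 12 between the engineered lines. The shares over all genes given above cover genes at every level, and the share among genes of this level was not computed. These counts therefore describe the 15 chains only. The comparisons with parental cells share the parental libraries, so their calls are not independent of each other, and no count of shared calls is given.

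**Figure D3:**
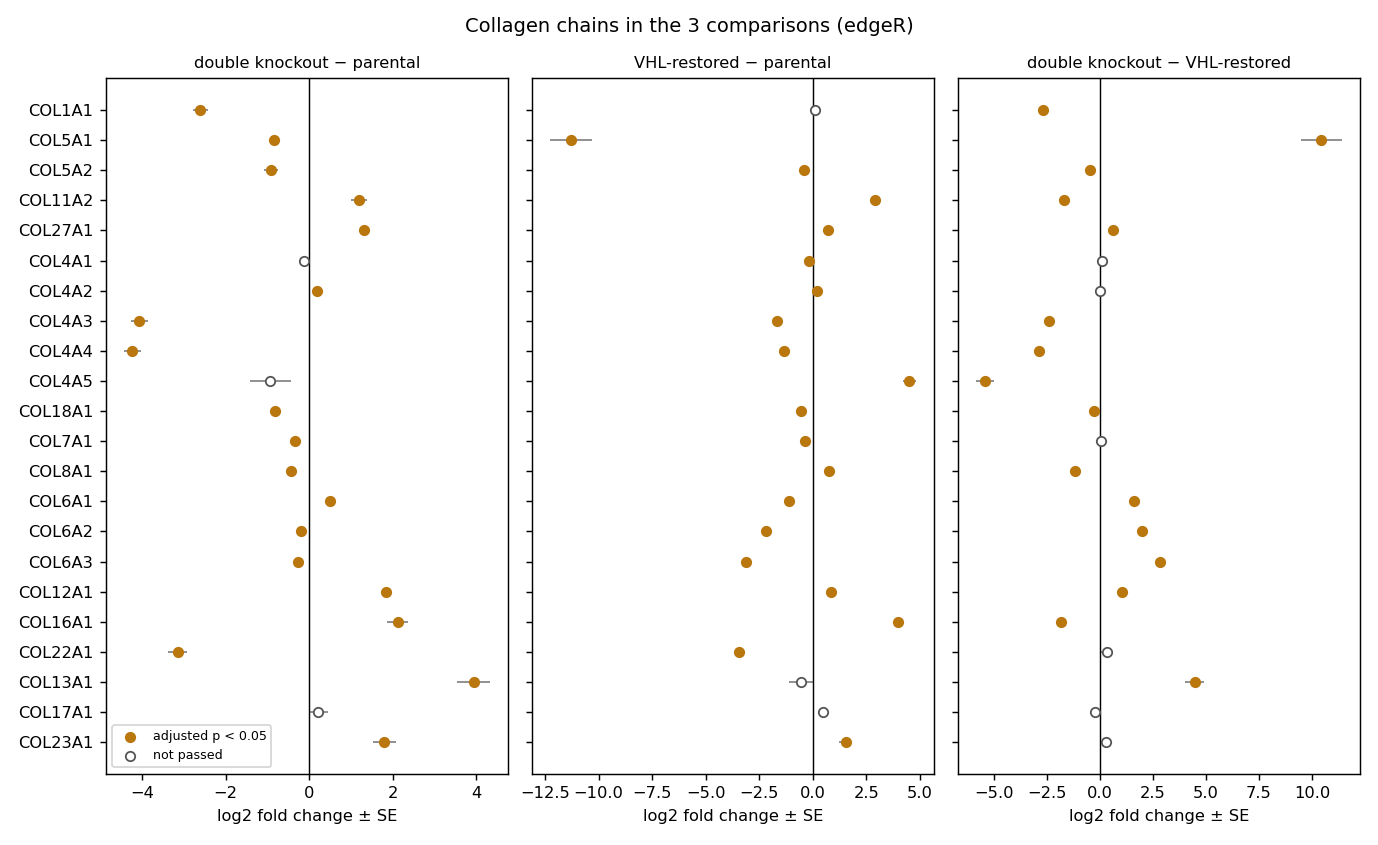
Log2 fold change (bars are 1 standard error) of the 22 chains with at least 1 CPM in some group in the 3 comparisons, each with its own axis, filled where the adjusted p was under 0.05. COL6A1 and COL8A1 lie on opposite sides of 0 in the comparisons with parental cells, and the position of COL5A1 wherever VHL-restored cells enter depends on the prior count, since each of those libraries had 1 count.

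Among the fibrillar chains, COL5A1 was the one whose transcript was nearly missing after VHL was restored. COL5A1 encodes the chain of type V collagen that starts and limits the width of fibrils. Its level was 98.8 and 102 CPM in the parental, 58.5 and 54.2 in the double-knockout, and 0.0358 and 0.0357 CPM in VHL-restored libraries. Each VHL-restored value is 1 count, set against 2933 and 2303 counts in the parental libraries. No 2 groups overlapped. It fell 1.78-fold in double-knockout cells (log2 fold change -0.83 ± 0.07 SE, adjusted p = 6.35e-12, edgeR). In VHL-restored cells the ratio of parental to VHL-restored level was 2798, with an exact 95% counting interval of 774 to 23107 (adjusted p = 3.24e-29, edgeR).

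COL5A2, the partner chain of COL5A1 in type V trimers, was 4.28 and 4.32 CPM in the parental libraries, 2.36 and 2.18 in the double-knockout and 3.15 and 3.25 in the VHL-restored ones. On the log2 scale COL5A2 fell by 0.92 ± 0.17 (SE) in the double knockout (adjusted p = 1.39e-05, edgeR). After VHL restoration it fell by 0.42 ± 0.15 (adjusted p = 0.0184, edgeR). The second call was lost with DESeq2 (adjusted p = 0.180) and without VHL-restored replicate 1 or either parental library (0.0722 to 0.0825, edgeR). COL5A1 stood at 19.3 and 19.6 times COL5A2 per kilobase in the parental and 20.7 and 20.8 times in the double-knockout libraries.

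COL1A1, the major chain of type I collagen, was 8.49 and 8.60 CPM in the parental libraries, 1.37 and 1.44 in the double-knockout and 10.1 and 8.29 in the VHL-restored ones. Only the double-knockout libraries stood apart, 6.08-fold below parental (adjusted p = 8.85e-15, edgeR) and 6.53-fold below VHL-restored cells (adjusted p = 2.44e-15, edgeR). The VHL-restored difference from parental, 0.10 on the log2 scale, did not pass (adjusted p = 0.507, edgeR). COL1A2, the other chain of type I, had at most 1 count in a library.

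COL11A2 and COL27A1 were the fibrillar chains called higher in both engineered lines. COL11A2, a chain of the cartilage type XI collagen, was 1.42 and 1.5 CPM in the parental libraries, 3.45 and 3.19 in the double-knockout and 11.8 and 10.3 in the VHL-restored ones. It rose 2.29-fold in the double knockout (adjusted p = 3.06e-06, edgeR) and 7.57-fold in VHL-restored cells (adjusted p = 1.46e-16, edgeR). COL27A1, a fibrillar chain best known from cartilage, was 22.4 and 21.7, then 57.2 and 52.4, then 38.7 and 33.1 CPM in the same order. It rose 2.48-fold (adjusted p = 1.22e-14, edgeR) and 1.63-fold (adjusted p = 2.76e-08, edgeR). The engineered lines thus stood in opposite order for these chains, with COL11A2 3.31-fold lower and COL27A1 1.53-fold higher in double-knockout than in the VHL-restored libraries (adjusted p = 6.62e-13 and 7.21e-08, edgeR). COL11A1, under 1 CPM, was 2.65-fold lower in double-knockout cells (adjusted p = 0.0307, edgeR), a call lost with DESeq2 (adjusted p = 0.142) and without any 1 of the 4 libraries compared (0.0572 to 0.144, edgeR). No other fibrillar chain was called.

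The 2 abundant type IV chains hardly moved. COL4A1 was 674 and 688 CPM in the parental libraries, 624 and 637 in the double-knockout and 635 and 569 in the VHL-restored ones. COL4A2 was 773 and 786, then 915 and 868, then 929 and 842 CPM in the same order. Against parental cells COL4A2 rose by 0.19 ± 0.06 (log2, SE) in the double knockout (adjusted p = 0.00353, edgeR) and by 0.18 ± 0.06 after VHL restoration (adjusted p = 0.00537, edgeR). COL4A1 fell by 0.18 ± 0.06 after VHL restoration (adjusted p = 0.00805, edgeR). Each of these 3 calls was lost without parental replicate 1, without parental replicate 2 or without 1 engineered library (double-knockout 1 for COL4A2 in those cells, VHL-restored 1 for COL4A2 and 2 for COL4A1), with adjusted p from 0.0753 to 0.166. COL4A1 in double-knockout cells was -0.11 ± 0.06 (adjusted p = 0.100, edgeR), and it passed in the fit of the 2 groups alone (adjusted p = 0.0287). Per kilobase COL4A1 stood at 0.856 and 0.860 of COL4A2 in the parental libraries, 0.669 and 0.721 in the double-knockout and 0.671 and 0.663 in the VHL-restored ones, so the parental ratio lay above all 4 others. With merged exons the group ratios were 1.51, 1.22 and 1.17, so which chain is the more abundant depends on the length used, and the order of the groups does not.

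The chains of the glomerular type IV trimer moved much more. COL4A3 was 16.7 and 17.7 CPM in the parental libraries, 0.821 and 1.24 in the double-knockout and 5.12 and 5.79 in the VHL-restored ones. Its head-to-head neighbour COL4A4 was 23.3 and 23.5, then 1.44 and 1.01, then 10.4 and 8.29 CPM. Both were highest in parental and lowest in double-knockout libraries, with no overlap. The fall of COL4A3 was 16.8-fold in the double knockout and 3.15-fold with VHL restored (adjusted p = 4.63e-20 and 1.24e-13, edgeR). That of COL4A4 was 18.8-fold and 2.50-fold (adjusted p = 4.92e-21 and 3.09e-12, edgeR). Between the engineered lines COL4A3 was 5.33-fold and COL4A4 7.53-fold lower in double-knockout cells (adjusted p = 1.98e-12 and 2.15e-15, edgeR).

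COL4A5, the X-linked chain of that trimer, followed another course. It was 0.438 and 0.397 CPM in the parental libraries, 0.239 and 0.194 in the double-knockout and 10.4 and 8.93 in the VHL-restored ones. The VHL-restored libraries alone were high, 22.8-fold above parental (adjusted p = 3.67e-18, edgeR) and 43.4-fold above double-knockout cells (adjusted p = 5.89e-19, edgeR). Per kilobase COL4A5 was 0.0330 and 0.0283 of COL4A3 in parental libraries and 2.56 and 1.94 times COL4A3 in VHL-restored libraries. COL4A6, which lies head to head with COL4A5, had no count in parental and 4 and 5 counts in VHL-restored libraries, at least 2.81-fold higher against 3 counts over the parental group (adjusted p = 0.0279, edgeR). That call was lost with DESeq2 (adjusted p = 0.0949) and without any 1 of the 4 libraries (0.0580 to 0.107, edgeR).

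COL18A1, the chain of the heparan sulfate proteoglycan collagen XVIII whose end fragment is endostatin, was 880 and 913 CPM in the parental libraries, 514 and 496 in the double-knockout and 644 and 583 in the VHL-restored ones. The 3 groups did not overlap. It was 1.77-fold lower in double-knockout cells and 1.46-fold lower with VHL restored (adjusted p = 5.42e-14 and 7.35e-10, edgeR), and 1.22-fold lower in double-knockout than in VHL-restored cells (adjusted p = 6.89e-05, edgeR). COL15A1, its relative, had 4 counts in all.

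The 3 chains of the common type VI trimer, which forms beaded filaments beside cells, fell together in VHL-restored cells, and far more than any of them did in double-knockout cells. COL6A1 was 265 and 262 CPM in the parental libraries, 385 and 360 in the double-knockout and 130 and 118 in the VHL-restored ones. COL6A2 was 414 and 421, then 370 and 359, then 91.2 and 92.3 CPM. COL6A3, the chain with the longest coding part of the 3, was 553 and 527, then 459 and 442, then 68.6 and 57.5 CPM. For each chain the VHL-restored libraries lay below all others. COL6A1 fell 2.13-fold, COL6A2 4.55-fold and COL6A3 8.56-fold once VHL was restored (adjusted p = 5.96e-16, 2.85e-24 and 3e-26, edgeR). In double-knockout cells COL6A1 rose 1.41-fold (adjusted p = 1.39e-08, edgeR), while COL6A2 fell 1.15-fold and COL6A3 1.20-fold (adjusted p = 0.003 and 0.000572, edgeR). The COL6A2 call was lost without parental replicate 2 (adjusted p = 0.0560) and the COL6A3 call without parental replicate 1 (0.102) or double-knockout replicate 2 (0.0513, edgeR). Between the engineered lines all 3 were higher in double-knockout cells, 3.00-fold, 3.97-fold and 7.13-fold (adjusted p = 4.55e-20, 4.83e-23 and 4.39e-25, edgeR).

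The balance of the type VI chains shifted with these changes. In double-knockout cells the shift was mainly that of COL6A1 against COL6A2 and COL6A3. Per kilobase COL6A1 was 1.22 and 1.26 times COL6A3 in the parental libraries, 2.13 and 2.07 times in the double-knockout and 4.79 and 5.22 times in VHL-restored libraries. The groups did not overlap. For COL6A2 over COL6A3, on the same scale, the parental ratios were 2.33 and 2.48. Double-knockout libraries lay close to them at 2.50 and 2.52, whereas VHL-restored ones reached 4.13 and 4.98. COL6A6, a chain that can take the place of COL6A3, under 1 CPM, was also called higher in double-knockout than in VHL-restored cells, with a ratio of 16.3 and a 95% counting interval of 2.53 to 683 (adjusted p = 0.00726, edgeR). It was lost without double-knockout replicate 2 (adjusted p = 0.117) or VHL-restored replicate 2 (0.0629, edgeR).

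**Figure D4:**
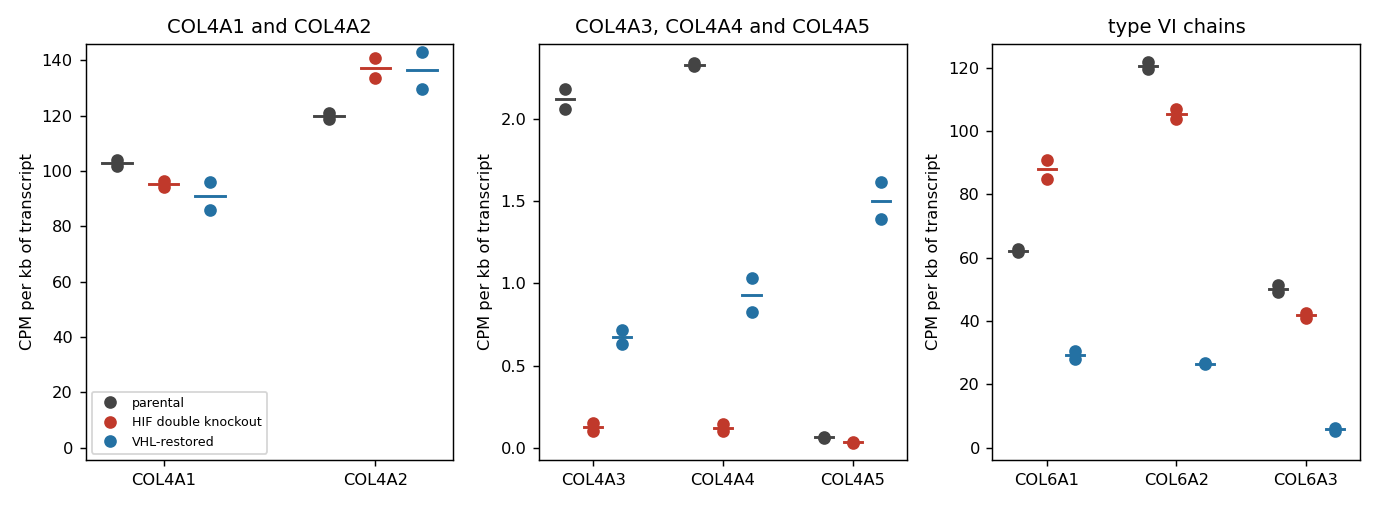
CPM per kilobase of principal transcript for COL4A1 and COL4A2, for COL4A3, COL4A4 and COL4A5, and for the type VI chains, with 1 point per library and a line at the group mean (linear axes, each with its own scale). COL4A5 was high in VHL-restored cells alone, and all 3 type VI chains were lowest there.

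COL7A1, which forms the anchoring fibrils below epithelia, was 287 and 293 CPM in the parental libraries, 244 and 217 in the double-knockout and 236 and 217 in the VHL-restored ones. It was 1.26-fold and 1.28-fold lower in the engineered lines (adjusted p = 3.19e-05 and 1.13e-05, edgeR), which overlapped each other. The microRNA gene MIR711 shares 36 exon bases with COL7A1 on the same strand and had group means from 4.17 to 5.71 CPM, so reads of the 2 cannot be told apart there. COL8A1, a chain of the short-chain collagen of endothelial and vessel wall networks, was 17.3 and 19.5, then 13.5 and 13.6, then 34.6 and 27.6 CPM. It was 1.36-fold lower in the double knockout (adjusted p = 0.000671, edgeR) and 1.70-fold higher in VHL-restored cells (adjusted p = 4.68e-08, edgeR). The first call was lost without parental replicate 2 (adjusted p = 0.0919, edgeR). The lines differed 2.30-fold from each other (adjusted p = 5.77e-12, edgeR).

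FACIT chains moved in both directions. COL12A1, which binds type I fibrils, was 13.4 and 14.5 CPM in the parental libraries, 50.6 and 50.0 in the double-knockout and 27.2 and 22.8 in the VHL-restored ones. It rose 3.61-fold and 1.79-fold (adjusted p = 9.82e-18 and 4.19e-09, edgeR) and was 2.01-fold higher in double-knockout than in VHL-restored cells (adjusted p = 3.92e-12, edgeR). COL16A1 was 0.809 and 0.529, then 3.01 and 2.99, then 11.0 and 10.7 CPM, a rise of 4.35-fold and 15.7-fold (adjusted p = 2.24e-09 and 2.75e-18, edgeR), with the engineered lines in the reverse order to COL12A1 (3.61-fold lower in double-knockout cells, adjusted p = 2e-13, edgeR). COL22A1, known from tissue junctions such as that of muscle and tendon, fell 8.87-fold and 11.0-fold (adjusted p = 1.47e-15 and 4.71e-16, edgeR), from 7.95 and 8.64 CPM in parental libraries to at most 1.13 CPM in the others. COL9A2 had no count in double-knockout and 4 and 7 counts in VHL-restored libraries (at least 3.60-fold lower in the former, adjusted p = 0.0112, edgeR), a call lost without either double-knockout library or VHL-restored replicate 2 (0.0569 to 0.0781, edgeR).

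Transmembrane collagens rose where they were called. COL13A1 was 0.270 and 0.309 CPM in the parental libraries, 4.96 and 3.92 in the double-knockout and 0.143 and 0.250 in the VHL-restored ones. Double-knockout libraries alone were high, 15.3-fold above parental (adjusted p = 1.32e-13, edgeR), while the VHL-restored difference did not pass (adjusted p = 0.462, edgeR). COL23A1, from group means of 0.607, 2.15 and 1.77 CPM, rose 3.50-fold in the double knockout and 2.88-fold after VHL restoration (adjusted p = 5.74e-07 and 1.58e-05, edgeR). COL17A1, a hemidesmosome chain, was between 1.72 and 3.18 CPM in all libraries and was not called in any comparison (adjusted p from 0.0742 to 0.467, edgeR). Without VHL-restored replicate 1 it passed as higher in VHL-restored than in parental cells (adjusted p = 0.00185) and as lower in double-knockout than in VHL-restored cells (0.0242, edgeR). The first also passed with filterByExpr (0.0469) and with the replicate block (0.0477). The hexagonal and other chains not named, COL8A2, COL10A1, COL26A1 and COL28A1, lay under 1 CPM and were not called.

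Genes that act on collagen were taken from 6 lists with 57 genes in the table. They were chosen by function with earlier results of these data known. Against parental cells 15 were higher and 19 lower in the double knockout and 15 and 18 after VHL restoration, and in double-knockout against VHL-restored cells 22 and 18. As shares of the 57 these are 26.3% higher and 33.3% lower, 26.3% and 31.6%, and 38.6% and 31.6%, against 26.6% and 27.5%, 26.5% and 27.7%, and 28.0% in each direction over all genes. Among the 16 of hydroxylation, glycosylation and folding, 5 were higher and 7 lower in the double knockout, and 1 higher and 9 lower after VHL restoration (31.2% and 43.8%, then 6.25% and 56.2%). The lists are small, and no test of a list against other genes was made, so these counts describe the members only. P4HA1, a catalytic subunit of the prolyl hydroxylase that stabilizes the helix, fell from 254 to 73.1 and 47.9 CPM (3.48-fold and 5.31-fold, adjusted p = 2.98e-21 and 3.63e-24, edgeR). PLOD2, the lysyl hydroxylase of telopeptides, fell from 530.2 to 78.4 and 163 CPM (6.77-fold and 3.24-fold, adjusted p = 1.01e-25 and 8.44e-21, edgeR). PLOD3 was lower in VHL-restored cells alone against parental, 2.54-fold (adjusted p = 2.6e-17, edgeR), and was 2.74-fold higher in double-knockout than in VHL-restored cells (adjusted p = 3.51e-18, edgeR). GLT25D2 (COLGALT2), a collagen galactosyltransferase, rose 8.50-fold in the double knockout, from 1.95 to 16.8 CPM (adjusted p = 1.68e-18, edgeR).

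In the list of secretion and propeptide cleavage (11 genes), 4 were higher and 3 lower in the double knockout, and 6 higher and 1 lower after VHL restoration. The shares were 36.4% and 27.3%, then 54.5% and 9.09%, against 26.6% and 27.5%, then 26.5% and 27.7%, over all genes. The 1 called lower after VHL restoration was PCOLCE, whose call was lost with DESeq2 (log2 fold change -0.69, adjusted p = 0.106, DESeq2). This call was also lost without VHL-restored replicate 2 or parental replicate 2 (log2 fold change -0.48 and -0.56, edgeR). ADAMTS3, a procollagen N-proteinase, rose from 20.7 to 43.3 and 69.6 CPM (adjusted p = 5.7e-13 and 1.68e-18, edgeR). PCOLCE2, an enhancer of C-propeptide cleavage, fell 28.2-fold in the double knockout, from 3.24 to 0.112 CPM (adjusted p = 9.43e-13, edgeR). Its double-knockout libraries, at 0.0684 and 0.155 CPM, lay near the level of 3 counts (0.103 and 0.117 CPM), so this fold rests on few counts. Of 5 cross-linking genes 1 was higher and 2 lower in the double knockout, and 1 higher and 3 lower after VHL restoration. These are 20% and 40%, then 20% and 60%, against the same all-gene shares. The 1 called higher in the double knockout was LOXL1, whose call was lost with DESeq2 (log2 fold change 0.34, adjusted p = 0.135, DESeq2). It was also lost without double-knockout replicate 1 or parental replicate 1 (log2 fold change 0.31 and 0.21, edgeR). LOX and LOXL2, oxidases that start cross-links, were lower in both lines: LOX fell from 352 to 68.9 and 41.3 CPM, and LOXL2 from 853 to 380 and 199 CPM (adjusted p at most 4.29e-18, edgeR).

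Of 9 receptors 1 was higher and 4 lower in the double knockout, and 2 higher and 3 lower after VHL restoration. The shares were 11.1% and 44.4%, then 22.2% and 33.3%, against the same 26.6% and 27.5%, then 26.5% and 27.7%, over all genes. DDR1, a receptor kinase for collagen, fell 2.43-fold in double-knockout cells (adjusted p = 6.69e-15, edgeR) and was not called after VHL restoration (adjusted p = 0.209, edgeR). ITGA1, the alpha subunit of an integrin that binds type IV collagen, fell 1.26-fold and 4.41-fold (adjusted p = 0.000893 and 1.78e-18, edgeR). ITGA10, also in the list, was 0.895, 0.397 and 2.04 CPM in parental, double-knockout and VHL-restored cells. On the log2 scale it changed by -1.13 and 1.21 against parental cells (adjusted p = 0.0101 and 0.0002, edgeR). The first call was lost with DESeq2 (adjusted p = 0.0604, DESeq2). It was also lost without double-knockout replicate 2 or parental replicate 2 (log2 fold change -0.98 and -0.95, edgeR). Of 8 proteases 2 were higher and 1 lower in the double knockout, and 0 higher and 2 lower after VHL restoration. These are 25% and 12.5%, then 0% and 25%, against the same all-gene shares. MMP2, a gelatinase, was 11.9 CPM in parental cells, 0.0536 in the double knockout and 1.56 after VHL restoration. Its double-knockout libraries, at 0.0684 and 0.0388 CPM, lay under the level of 3 counts (0.103 and 0.117 CPM). MMP9 rose 2.35-fold in double-knockout cells (adjusted p = 5.53e-12, edgeR). Of the matrix partners, NID1, which links laminin to type IV collagen, fell 13.1-fold in the double knockout and rose 1.74-fold after VHL restoration (adjusted p = 1.46e-14 and 3.93e-06, edgeR). In the matrix list of 8 genes, 2 were higher and 2 lower in double-knockout cells (25% each), against 26.6% and 27.5% over all genes. In VHL-restored cells 5 were higher and 0 lower (62.5% and 0%), against 26.5% and 27.7%. These are counts of the members and not a tested difference from other genes.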

How the data were processed

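The authors deposited 1 table of counts, whole-number reads per gene symbol for 19009 genes in 6 libraries. Although named normalized, the values are integers with unequal column sums and were taken as raw counts. HISAT2 2.2.1, featureCounts 2.0.8, Trimmomatic 0.39, FastQC 0.74 and limma 3.58.1 are named per the submitters' processing notes, as are both hg38 and hg19, so the build of the counts is not known. The sources used here do not state strandedness.

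The 18273 genes counted at least once were fitted with edgeR 4.0.16 in R 4.3.3 (quasi-likelihood, TMM factors 0.977 to 1.02, prior count 0.125, 3 group means over 6 libraries), with Benjamini-Hochberg adjustment at 0.05 and Wald errors as SE. CPM are counts over the TMM library size. Where a group had 0 counts, the fold is a bound against 3 counts over the group. With 1 to 3 counts it is a ratio with its exact 95% interval. Intervals and bounds cover counting error only. The analysis was tested on simulated data.

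All chains may be named. Those of 10 CPM or more are given by library, with up to 2 called genes per partner list and comparison and at least 1 CPM. Members and lists were chosen with earlier results of these data known. The transcript length for per-kilobase levels was changed, after the values were seen, from merged exons to the principal transcript, and both are given. Promoter sequences are from RefSeq, GRCh38.p14. Alternatives were RLE scaling, median centring, filterByExpr, DESeq2 1.42.0, pairwise fits, a replicate block and leaving out each library.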

Additional observations from a re-analysis of the deposited data

Results flagged for a closer look

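COL6A1 and COL8A1 were called in opposite directions in the 2 engineered lines against the same parental libraries. The difference between the lines is the difference of those values, so its p adds no support to a choice made on them. COL6A1 was higher in double-knockout than in VHL-restored cells, by 1.59 on the log2 scale (adjusted p = 4.55e-20, edgeR). For COL8A1 the same difference was -1.20 (adjusted p = 5.77e-12, edgeR). With 2 libraries a group, no library could be tested as standing apart from its group.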

How the results depend on the processing

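The counts of chains called stayed within 1.5 times of those reported under each alternative run. Leaving out 1 library at a time gave 7 to 8 higher and 9 to 13 lower in double-knockout against parental cells, 7 to 9 and 9 to 11 in VHL-restored cells, and 7 to 9 and 8 to 11 between the engineered lines. Calls over all genes ranged from 7974 to 10134, 7891 to 9671 and 9019 to 9679 in these fits. For 49 single genes (chains, targeted and partner genes) in the 3 comparisons, 862 values kept call and direction under the other alternatives, 7 lost and 4 gained a call. Leaving out libraries kept 836, with 40 lost and 6 gained. No fold change reversed. The chains that lost or gained a call were COL4A1, COL4A2, COL4A6, COL5A2, COL6A2, COL6A3, COL6A6, COL8A1, COL9A2, COL11A1 and COL17A1, and the cause was not tested. Besides those given above, COL5A2 between the engineered lines lost its call with DESeq2 (adjusted p = 0.12) and without double-knockout replicate 2 (0.0738) or VHL-restored replicate 2 (0.0548). COL4A1 gained a call in double-knockout cells without either VHL-restored library (0.0290 and 0.0291), and between the engineered lines without VHL-restored replicate 1 (0.0179).

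The labels do not say whether the replicate numbers pair the libraries. The correlation of the replicate differences was 0.131 for parental with double-knockout and 0.000456 and 0.00576 for the other pairs. These values do not settle whether libraries of the same replicate number share a batch. With a replicate block, calls over all genes were 10112, 10148 and 10458, and chains called were 8 higher and 12 lower, 10 and 11, and 8 and 10.

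The length used for levels per kilobase was changed after the data were seen. With merged exons the ratio of COL4A1 to COL4A2 became 1.51, 1.22 and 1.17 in parental, double-knockout and VHL-restored cells, where the principal transcripts gave 0.858, 0.694 and 0.667. The ratio of COL6A1 to COL6A2 in double-knockout cells became 1.06 where it was 0.834. Tests and fold changes do not use length. A floor of 3 counts is 0.101 to 0.132 CPM in a library, which limits the 22 chains under 1 CPM.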
